A study of Mus musculus with 6 samples.

Results

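The clustered replication-dependent histone genes are the 71 of 34745 gene records whose symbol begins with Hist1h, Hist2h, Hist3h or Hist4h. They carry 70 distinct symbols, since Hist2h2bb stands on 2 records, 1 of which is a long noncoding RNA in the GENCODE M21 annotation. By histone class they hold 6 H1, 20 H2A, 20 H2B, 12 H3 and 13 H4 records, and by gene cluster 56 Hist1, 11 Hist2, 3 Hist3 and 1 Hist4 record. M21 holds 69 of the 71 by identifier and calls 65 protein coding and 3 pseudogenes. RNA sequencing was done on liver from 2 genotypes with 3 libraries each, Sox9HKO (called HKO) and Sox9f/f (called WT), all C57BL/6, 12 weeks old and sampled 48 h after partial hepatectomy, in which part of the liver is removed and the rest regrows. Sox9f/f marks a Sox9 gene flanked by loxP sites, which the labels give for WT. The driver and cell specificity of the deletion in HKO, and whether each library is 1 mouse, are not stated in the labels. The labels name the cell type as hepatocyte and the tissue as liver.

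Histones package DNA: the core histones H2A, H2B, H3 and H4 form the nucleosome, and H1 binds the linker DNA between nucleosomes. The clustered genes are transcribed mainly in S phase, when newly made DNA needs histones, and most of their mRNAs end at a conserved stem-loop in place of a poly(A) tail. The stem-loop is bound by SLBP and cut downstream with the U7 small nuclear ribonucleoprotein, and some of the genes can also make polyadenylated transcripts in differentiated cells. After partial hepatectomy hepatocytes leave quiescence and replicate their DNA.

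An mRNA that ends at the stem-loop has no poly(A) tail, so the sequence is shown for members on which the results turn. The stem-loop consensus was found on the gene strand, in the annotated transcript or just past it, in 44 of the 69 records with an M21 match, with 8 different 16-base sequences. It lay 21 to 58 bases after the stop codon, with a median of 31.5. The sequences below are GRCm38 bases on the gene strand from GENCODE M21 transcripts, 5′ to 3′. Capitals mark the stem-loop, whose coordinates are given, and lower case marks 5 bases on each side.
Hist1h1c (H1, chr13:23739512-23739527, plus strand): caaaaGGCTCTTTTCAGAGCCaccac
Hist2h2aa1 (H2A, chr3:96246032-96246047, plus strand): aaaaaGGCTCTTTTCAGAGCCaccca
Hist2h2aa2 (H2A, chr3:96239784-96239799, minus strand): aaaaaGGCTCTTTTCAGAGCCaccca
Hist1h2be (H2B, chr13:23585531-23585546, minus strand): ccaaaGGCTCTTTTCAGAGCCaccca
Hist1h2bg (H2B, chr13:23571843-23571858, plus strand): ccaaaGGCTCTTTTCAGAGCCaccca
Hist1h3c (H3, chr13:23745047-23745062, minus strand): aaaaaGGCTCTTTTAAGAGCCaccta
Hist2h3c2 (H3, chr3:96238485-96238500, minus strand): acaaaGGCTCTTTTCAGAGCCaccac
Hist1h4h (H4, chr13:23531458-23531473, plus strand): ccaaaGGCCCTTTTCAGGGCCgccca
Hist1h4i (H4, chr13:22040966-22040981, minus strand): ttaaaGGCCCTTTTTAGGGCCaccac
The form in Hist1h1c was the commonest, in 24 members of H1, H2A, H2B and H3, while the form in Hist1h4h stood in 7 members, all H4. The form in Hist1h3c stood in 6 members. The search found none in the transcripts of Hist1h2bc and Hist2h2be, which says only that the consensus is not in those sequences.

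The promoters were searched on both strands for TATAAA, the core of the TATA box, and for CCAAT, in the 250 bases before the RefSeq start (GRCm38.p6). TATAAA stood in 29 of the 61 members with 1 promoter window (47.5%), against 12.4% of 32851 promoter windows of all genes. CCAAT stood in 50 of 61 (82.0%), against 33.8% of all windows. CCAAT was in 6 of 6 H1, 17 of 17 H2A, 16 of 16 H2B and 8 of 10 H3 windows but in 3 of 12 H4 windows. The windows are not all separate promoters. Those of Hist2h2aa1 and Hist2h2aa2 share an identical run of 169 bases. Neighbouring genes on opposite strands, such as Hist1h2ae and Hist1h2bg, can share bases, so the same motif can be counted again. The windows of the most counted member and of a member called lower in HKO are printed with both motifs, on either strand, in capitals.
Hist1h1c promoter (chr13:23738557-23738806, plus strand): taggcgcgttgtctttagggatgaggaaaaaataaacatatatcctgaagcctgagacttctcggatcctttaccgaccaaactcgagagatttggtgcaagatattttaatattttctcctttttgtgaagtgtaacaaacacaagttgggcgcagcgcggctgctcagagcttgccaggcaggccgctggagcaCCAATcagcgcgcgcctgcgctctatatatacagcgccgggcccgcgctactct
Hist1h2bg promoter (chr13:23571150-23571399, plus strand): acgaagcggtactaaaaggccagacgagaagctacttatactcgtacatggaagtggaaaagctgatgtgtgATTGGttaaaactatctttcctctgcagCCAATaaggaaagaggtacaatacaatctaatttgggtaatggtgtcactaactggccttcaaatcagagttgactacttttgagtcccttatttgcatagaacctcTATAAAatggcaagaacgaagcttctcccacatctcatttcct
Hist1h1c has 1 CCAAT and no TATAAA in this window, and Hist1h2bg has 2 CCAAT matches, 1 of them on the reverse strand as ATTGG, and 1 TATAAA.

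The libraries held 18136185 to 21168233 counts in HKO and 16659778 to 18514962 in WT. HKO 2 stood apart from the other libraries: mitochondrial genes took 25.9% of its counts, against 12.1 to 16.3% elsewhere, and it lay at the far end of the second principal component. Sox9 had 6.34, 4.30 and 4.78 CPM (counts per library total after TMM scaling) in HKO libraries, against 6.94, 13.7 and 11.4 CPM in WT libraries, and fell by 1.05 ± 0.27 on the log2 scale (SE; edgeR adjusted p = 0.0284), although HKO 1 and WT 1 were close. All 10 hepatocyte markers were detected. Tat, Ass1, Cps1 and Fah rose (log2 fold changes of 1.82, 1.36, 0.72 and 0.43, each called by edgeR), 0 fell, and the median of the 10 was 0.36. Their sum, most of it Alb, was 75584 to 80457 CPM in HKO and 79141 to 101636 CPM in WT. The 18 markers of other cells summed to 216, 503 and 236 CPM in HKO 1, 2 and 3 and to 279 to 304 CPM in WT. These sums include Mki67, a proliferation marker, with 17.7, 64.0 and 25.7 CPM in HKO and 154, 137 and 138 CPM in WT. Without Mki67, the sum of every HKO library lay above that of every WT library, but the HKO libraries differed in the genes behind it. In HKO 1, 2 and 3, Col3a1 had 8.38, 137 and 8.98 CPM, and Stab2 had 30.3, 106 and 45.8 CPM. Col1a1 had 2.95, 48.9 and 2.01 CPM. Ptprc, Clec4f, Adgre1 and Alas2 were instead lower in HKO 2 than in HKO 1 and 3. Of the 11 markers of other cells tested, 4 rose (Hba-a1, Hbb-bs, Clec4f and Adgre1, genes of red cells and macrophages) and 1 fell (Mki67). Over all genes tested, 12.1% rose and 11.2% fell. Cd3e, a T cell marker, was at 0 in 2 HKO libraries and in all WT libraries. The part of these shifts in the histone values was not tested, and in bulk tissue fewer cells of a type and less RNA per cell cannot be told apart.

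In HKO livers 4 H2B genes and an H2A pseudogene were called lower than in WT, and 3 of these H2B calls depended on the setting or libraries used. The record of 1 H2A gene, Hist2h2aa2, was higher, but its sum with the identical copy Hist2h2aa1 was 5.15 CPM in HKO and 11.8 CPM in WT, the other direction, with overlapping groups. The linker histone gene Hist1h1c and the H2B gene Hist1h2bc, which made up most histone counts, did not pass the test. Of the 16 members that could be tested, 5 fell in HKO (31.25%), against 11.2% of all 12556 genes tested, and 1 record rose (6.25%), against 12.1%. The 5 were the H2B genes Hist2h2be, Hist1h2bg, Hist1h2be and Hist1h2br and the H2A pseudogene Hist1h2al, and the 1 that rose was Hist2h2aa2, whose value alone is uncertain because of its copy. The other 10 did not pass the test. The median log2 fold change of the 16 was -0.33, and that of all genes tested was 0.02. A member was tested only if it passed edgeR's filter on low counts, 55 of 71 did not, and a member that passed through the group where it is high had to differ, so these shares describe the tested members only. Without HKO 2, the library that stood apart, 8 of 21 tested members fell and 2 rose, against 12.2% and 12.5% of all genes tested. The number called in either direction was 3 of 22 without HKO 1 (16.3% of all genes) and 2 of 19 without WT 3 (10.9% of all genes), where the calls left were Hist1h2al and Hist1h2be.

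**Figure D1:**
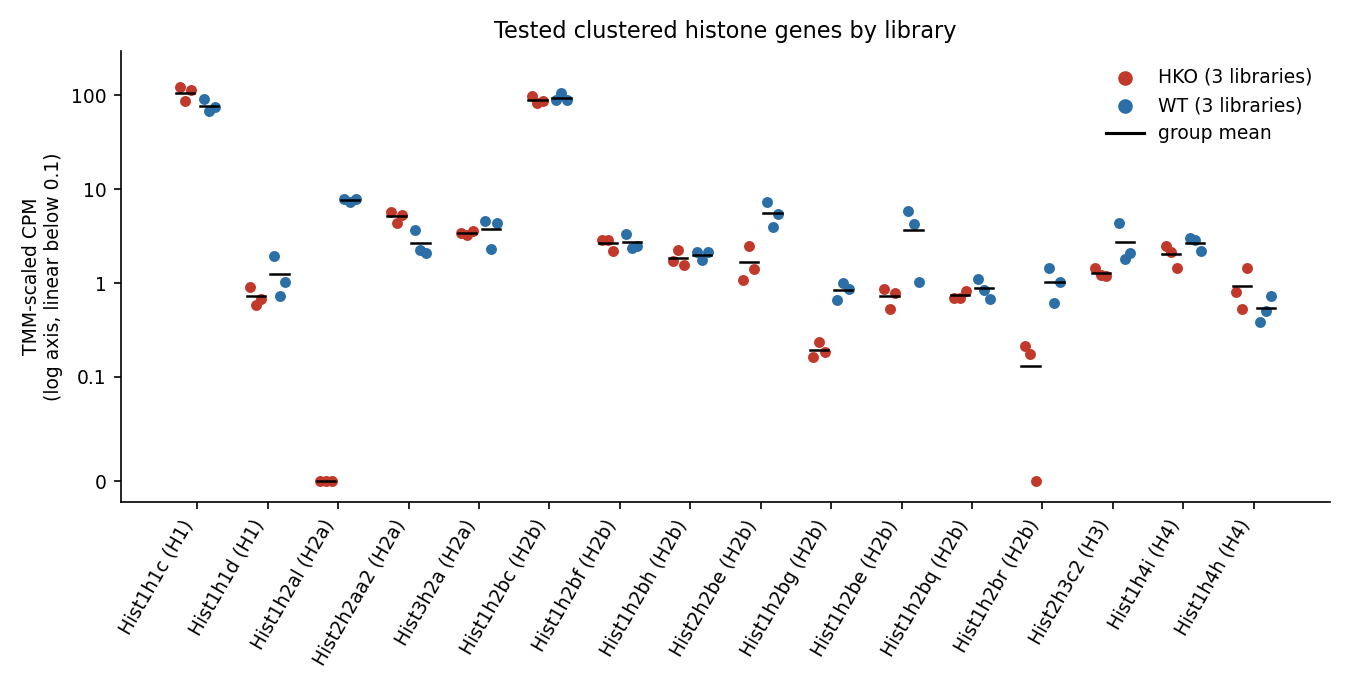
Level of each of the 16 tested members in each library, as TMM-scaled CPM on a log axis that is linear below 0.1, with HKO libraries in red left of WT libraries in blue and black lines at group means. Hist1h1c and Hist1h2bc sit near 100 CPM in both genotypes, and Hist1h2al is at 0 in all HKO libraries.

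Histone members together were a small part of the RNA. They took 0.0253, 0.0183 and 0.0233% of the counts of HKO 1, 2 and 3 and 0.0269, 0.0206 and 0.0217% of those of WT 1, 2 and 3. Their sum was 222 ± 25.1 CPM in HKO and 230 ± 21.4 CPM in WT (mean ± SD over 3 libraries each), and the groups overlapped. Hist1h1c gave 41.5% and Hist1h2bc 40.6% of all member counts. These 2 genes together took 89.6, 86.3 and 89.5% of member counts in HKO, against 70.7, 80.7 and 74.8% in WT. By FPKM, which divides by gene length, Hist1h2bc led with 122 ± 16.3 in HKO and 128 ± 8.32 in WT, followed by Hist1h1c with 69.2 ± 15.2 in HKO and 50.4 ± 10.3 in WT. With the longer M21 exon length, Hist1h2bc came to 77.6 FPKM in HKO and 81.8 FPKM in WT, so its lead over Hist1h1c rests in part on the length used. The median member had a mean of 0.222 FPKM over the 6 libraries. With these 2 genes left out, the other 69 records summed to 25.7, 26.9 and 23.7 CPM in HKO, against 74.6, 41.3 and 55.8 CPM in WT, so every HKO library lay below every WT library. The ratio of means was 0.444. Without 4 named members that were at 0 in HKO, the sums were the same in HKO and 49.7, 33.5 and 32.5 CPM in WT. The ratio, which this choice could only raise, was 0.659. By cluster, the Hist2 records on chromosome 3 summed to 8.27, 8.26 and 8.02 CPM in HKO and 33.2, 9.04 and 25.3 CPM in WT, where WT 2 was close to HKO. The Hist1 records summed to 234, 184 and 213 CPM in HKO and 216, 203 and 191 CPM in WT, and the Hist3 records to 3.76, 3.49 and 3.96 CPM in HKO and 5.11, 2.70 and 4.70 CPM in WT, with overlap in both.

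**Figure D2:**
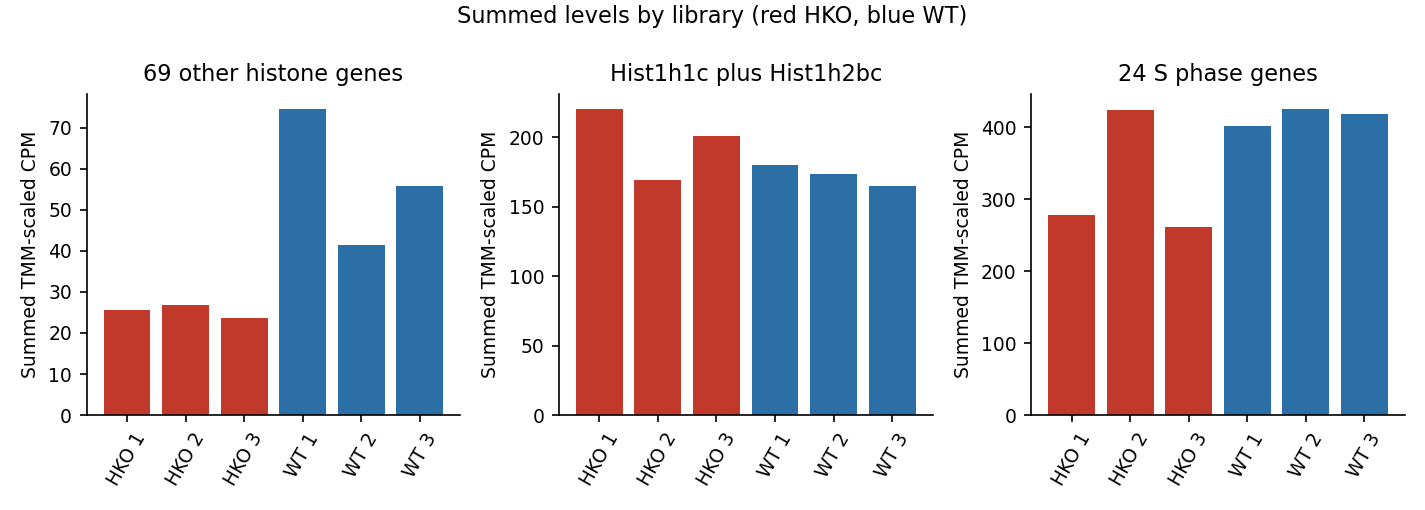
Summed TMM-scaled CPM per library (bars; HKO red, WT blue) of the 69 members other than Hist1h1c and Hist1h2bc, of those 2 genes, and of 24 S phase genes. The 69 members reach 23.7 to 26.9 CPM in HKO libraries and 41.3 to 74.6 CPM in WT libraries, while the S phase sum of HKO 2, 424 CPM, lies among the WT values.

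Linker histones came almost wholly from Hist1h1c, which encodes H1.2 and held 98.2% of H1 counts. It had 122, 86.5 and 114 CPM in HKO libraries, against 91.4, 68.3 and 74.9 CPM in WT libraries, and HKO 2 lay below WT 1. The log2 fold change was 0.46 ± 0.16 (SE) and did not pass (edgeR adjusted p = 0.0734). Without HKO 2 it did (0.59, edgeR adjusted p = 0.0183), but not with any other single library left out (edgeR adjusted p of 0.0565 to 0.206). The H1 class took 50.01, 44.8 and 51.1% of member counts in HKO and 37.2, 32.7 and 34.7% in WT, so the groups did not overlap in this share. The other H1 genes were low. Hist1h1d, which encodes H1.3, had 17, 10 and 15 counts in HKO and 35, 13 and 17 in WT (log2 fold change -0.76 ± 0.45, edgeR adjusted p = 0.248). Hist1h1e, which encodes H1.4, had 6, 7 and 2 counts in HKO and 18, 11 and 9 in WT, and Hist1h1a, which encodes H1.1, had 1, 0 and 3 in HKO and 5, 4 and 3 in WT. Both were too low to be tested. Without Hist1h1c the H1 sum had a log2 ratio of -0.97, the opposite sign to that of the whole class (0.43).

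**Figure D3:**
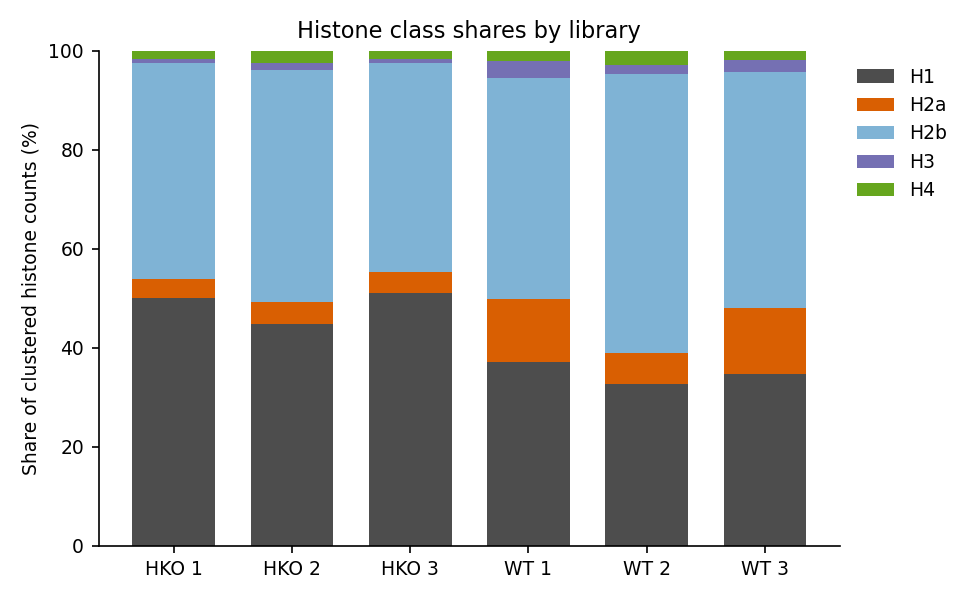
Share of clustered histone counts taken by H1, H2A, H2B, H3 and H4 genes in each library (stacked bars, percent; HKO left, WT right). H1 takes 44.8 to 51.1% in HKO libraries and 32.7 to 37.2% in WT libraries, and H2A takes 3.91 to 4.39% in HKO and 6.23 to 13.3% in WT.

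H2A, the core histone that pairs with H2B, summed to 9.25 ± 0.558 CPM in HKO and 24.98 ± 10.2 CPM in WT (mean ± SD over 3 libraries each), with every HKO library below every WT library. Much of the WT sum stood on 2 records at 0 in HKO, Hist1h2al (mean of 7.69 CPM in WT) and Hist2h2aa1 (9.18 CPM). Hist1h2al, annotated as a processed pseudogene at chr13:51202688-51203065 on the minus strand, away from the main Hist1 cluster, had 0 counts in all HKO libraries and 143, 129 and 129 counts in WT. With 3 counts allowed over the HKO group, it was at least 148-fold lower there (edgeR adjusted p = 0.000243). The predicted gene Gm44341 overlaps it on the opposite strand, and 19.2% of its 100-base windows occur at other loci, Hist2h2aa1 among them. Without the 2 H2A records named as 0 in HKO, Hist1h2al and Hist2h2aa1, the H2A log2 ratio was 0.19, against -1.43 with them. They were picked for being at 0 in HKO, so leaving them out could only raise the ratio. Hist2h2aa2, the identical copy of Hist2h2aa1, was kept (means of 5.15 CPM in HKO and 2.66 CPM in WT). The sign of 0.19 thus depends on how reads were divided between these copies.

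Hist2h2aa1 and Hist2h2aa2 encode the same H2A protein from identical coding sequences, and they bear the same stem-loop and flanks printed above. The 528-base transcript of Hist2h2aa2 lies within the 586-base transcript of Hist2h2aa1 with 0 differences, so a read from Hist2h2aa2 matches both. Hist2h2aa2 had 106, 76 and 117 counts in HKO and 66, 40 and 34 in WT, and rose by 0.95 ± 0.27 on the log2 scale (SE; edgeR adjusted p = 0.0379). Hist2h2aa1 had 0 counts in all HKO libraries and 252, 0 and 222 counts in WT, and was not tested. WT 2, like the HKO libraries, had no count on this record. The sum of the pair was 106, 76 and 117 counts in HKO and 318, 40 and 256 in WT, so the groups overlapped, WT 2 being the lowest library. No source used here says to which copy a read matching both was given, so the value of either record alone is uncertain. The call was also lost in 5 alternatives, 4 of them leaving out HKO 1, HKO 3, WT 2 or WT 3 (edgeR adjusted p of 0.0996 to 0.133).

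**Figure D4:**
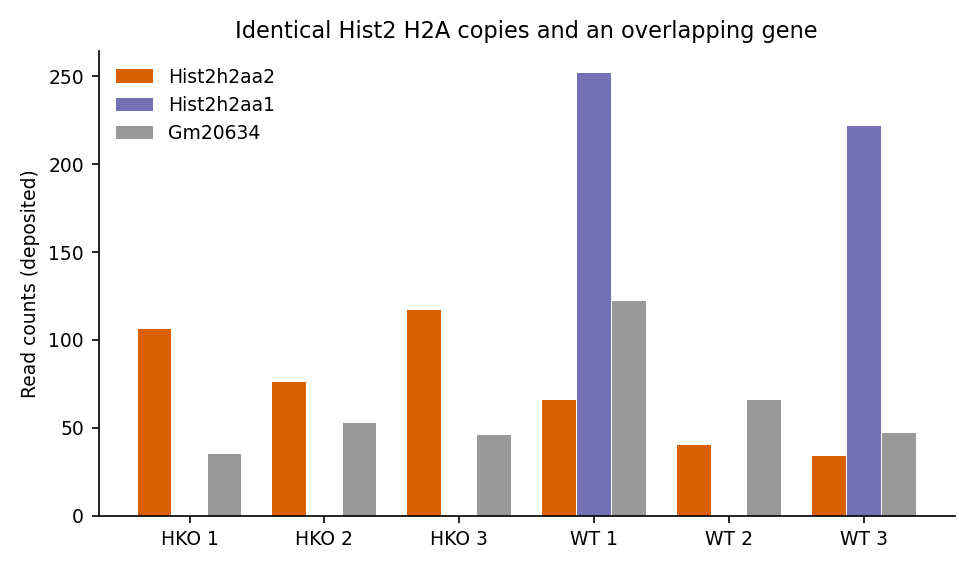
Deposited read counts of the identical H2A copies Hist2h2aa2 and Hist2h2aa1 and of Gm20634, a predicted gene that overlaps Hist2h2aa1, in each library (HKO left, WT right). Hist2h2aa1 has counts in WT 1 and WT 3 alone, and Hist2h2aa2 is highest in HKO 3.

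Gm20634 overlaps Hist2h2aa1 and Hist2h3c1 on the same strand. It had 35, 53 and 46 counts in HKO and 122, 66 and 47 in WT and did not pass the test (log2 fold change -0.92 ± 0.37, edgeR adjusted p = 0.105). Adding it, Gm20632 and Gm20633 to the H2A pair gave 151, 143 and 172 counts in HKO and 455, 123 and 317 in WT, again with WT 2 lowest. The other highly ranked H2A gene was Hist3h2a, a Hist3 cluster gene whose windows occur at no other locus, genes that overlap it left aside. Its exons overlap Trim17 on the same strand and Gm44313 on the opposite strand. Hist3h2a had 63, 56 and 79 counts in HKO and 82, 41 and 72 in WT, with overlapping groups (log2 fold change -0.13 ± 0.28, edgeR adjusted p = 0.765).

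H2B held the most members called lower, 4 of 8 tested, against 11.2% of all genes tested. It also held the most tested members: 2 H1, 3 H2A, 1 H3 and 2 H4 records were tested, too few to compare the classes. Hist1h2bc, the highest member per length, had 98.8, 82.8 and 87.2 CPM in HKO libraries and 88.6, 105 and 90.4 CPM in WT libraries. The groups overlapped (log2 fold change -0.08 ± 0.11, edgeR adjusted p = 0.637). Because Hist1h2bc held 87.4% of H2B counts, the class sum was 98.0 ± 7.95 CPM in HKO and 113 ± 7.82 CPM in WT (mean ± SD over 3 libraries each), and without it the log2 ratio was -1.15.

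Hist2h2be (chr3:96221119-96223738, plus strand) had 20, 43 and 31 counts in HKO and 132, 70 and 90 in WT. All HKO libraries lay below all WT libraries, and the gene fell by 1.75 ± 0.37 on the log2 scale (SE; edgeR adjusted p = 0.0133). None of its 100-base windows occurs at another locus, which holds for none of the other called members. Leaving out WT 3 took its adjusted p to 0.0505 in edgeR, with the same fold change to within 0.02. In the exact permutation test over the 6 libraries (two-sided) its p was 0.1, the smallest that 3 against 3 can give, as for every tested member whose groups did not overlap. Groups did not overlap for 6 tested members with HKO below (37.5%; 21.6% of all genes tested) and for 1 with HKO above (6.25%; 22.6% of all genes).

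Hist1h2bg (chr13:23571408-23571884, plus strand) had 3, 4 and 4 counts in HKO and 12, 18 and 14 in WT, and fell by 2.10 ± 0.43 on the log2 scale (SE; edgeR adjusted p = 0.0122). The call was lost without WT 2 or WT 3 (edgeR adjusted p = 0.0573 and 0.0548). Of the windows of its M21 transcripts, 44.9% occur at other loci, mainly H2B genes. The M21 exons cover 618 bases and the counted record 477, so the share in the counted record can differ.

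Hist1h2be (chr13:23583742-23621124, minus strand) had 16, 9 and 17 counts in HKO and 106, 75 and 17 in WT. HKO 3 and WT 3 had the same count, at 0.775 and 1.04 CPM. It fell by 2.35 ± 0.60 on the log2 scale (SE; edgeR adjusted p = 0.0272), but was lost by limma-voom (adjusted p = 0.104) and without HKO 1, HKO 3, WT 1 or WT 2 (edgeR adjusted p of 0.068 to 0.0783). Its gene model overlaps Hist1h1e and Gm11398 on the same strand.

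Hist1h2br (chr13:21833743-21837530, plus strand) had 4, 3 and 0 counts in HKO and 26, 11 and 17 in WT. It fell by 2.998 ± 0.76 on the log2 scale (SE; edgeR adjusted p = 0.0262) and was lost without HKO 1, WT 1 or WT 3 (edgeR adjusted p of 0.0502 to 0.0857). Of its windows, 86.4% occur at other loci, with Hist1h2bq among them. Hist1h2bq, named after its values were seen, had 13, 12 and 18 counts in HKO and 20, 15 and 11 in WT and did not pass (log2 fold change -0.24 ± 0.35, edgeR adjusted p = 0.657). Their sum was 17, 15 and 18 counts in HKO and 46, 26 and 28 in WT, without overlap.

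The remaining named H2B genes overlapped between genotypes. Hist1h2bf had 54, 50 and 48 counts in HKO and 60, 42 and 41 in WT (log2 fold change -0.04 ± 0.26, edgeR adjusted p = 0.927). Hist1h2bh had 32, 39 and 34 counts in HKO and 39, 31 and 35 in WT (log2 fold change -0.13 ± 0.28, edgeR adjusted p = 0.765). The Hist2h2bb record that is a long noncoding RNA in M21 had 0 counts in all HKO libraries and 32, 10 and 7 in WT, which is at least 17.8-fold lower if 3 counts are allowed over the HKO group. It did not pass the filter and was not tested.

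**Figure D5:**
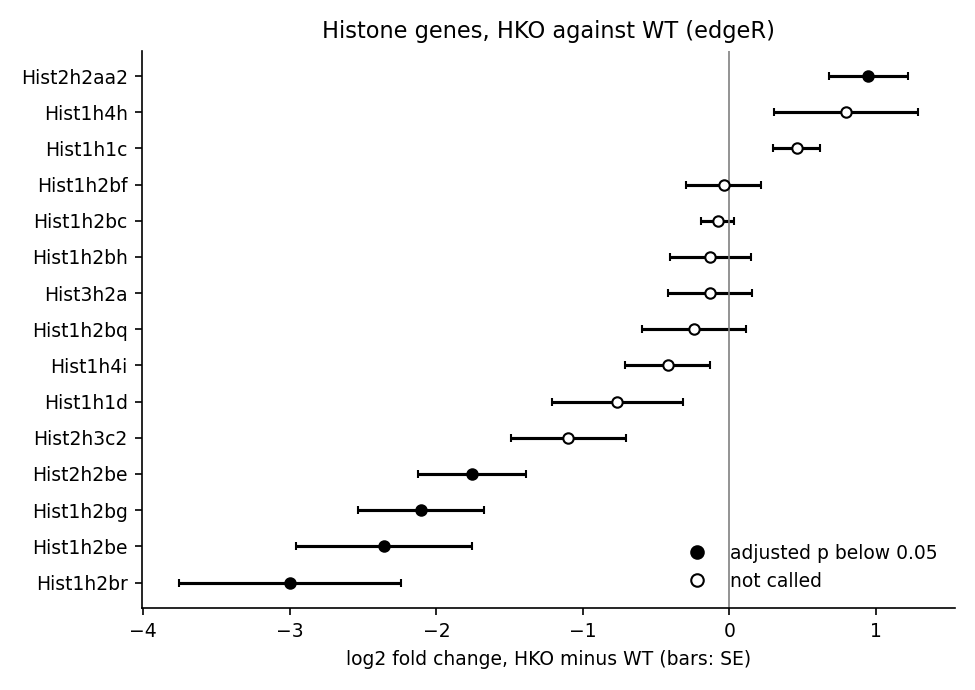
Log2 fold change of HKO minus WT with its standard error for 15 tested members, filled where the edgeR adjusted p was below 0.05. Hist1h2al, which was at 0 in HKO, is left out. The fall is greatest in Hist1h2br (-2.998) and the other called values are between -2.35 and 0.95.

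H3 was low throughout. The 12 records summed to 2.23 ± 0.323 CPM in HKO and 5.95 ± 2.28 CPM in WT (mean ± SD over 3 libraries each), with every HKO library below every WT library. Hist2h3c2 gave 49.9% of H3 counts, with 27, 21 and 26 counts in HKO and 79, 32 and 34 in WT. Its groups did not overlap, but it did not pass the test (log2 fold change -1.10 ± 0.39, edgeR adjusted p = 0.0796). Its coding sequence is identical to that of Hist2h3c1, which had 0 counts in all HKO libraries and 21, 0 and 23 in WT, the same pattern over libraries as Hist2h2aa1 beside it on chromosome 3. The pair summed to 27, 21 and 26 counts in HKO and 100, 32 and 57 in WT. The untested genes Hist1h3d, Hist1h3g and Hist1h3c were at most 5 counts in any HKO library. Hist1h3d had 2, 5 and 2 counts in HKO and 11, 8 and 11 in WT, Hist1h3g had 2, 4 and 0 in HKO and 13, 5 and 3 in WT, and Hist1h3c had 2, 2 and 5 in HKO and 9, 5 and 5 in WT.

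The H4 genes were divided in direction. The 13 records summed to 4.30 ± 0.525 CPM in HKO and 5.23 ± 0.844 CPM in WT (mean ± SD over 3 libraries each), and the groups overlapped. Hist1h4i had 46, 37 and 32 counts in HKO and 55, 51 and 36 in WT (log2 fold change -0.42 ± 0.29, edgeR adjusted p = 0.322). Hist1h4h had 15, 9 and 32 counts in HKO and 7, 9 and 12 in WT (log2 fold change 0.79 ± 0.49, edgeR adjusted p = 0.273), so HKO 2 equalled WT 2 in counts. Hist1h4m had 0, 6 and 0 counts in HKO and 11, 12 and 7 in WT, and Hist1h4k had 0, 7 and 2 in HKO and 3, 9 and 7 in WT. In both of these untested genes HKO 2 was the highest HKO library. By group mean, 7 H4 genes were lower and 6 higher in HKO, against 15 and 4 for H2A, 15 and 2 for H2B, 10 and 2 for H3 and 4 and 2 for H1.

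Most members had too few counts to be judged alone. The 55 with a mean under 10 counts are not quite the 55 untested members. Hist1h2bg is among them, though it was tested and called lower, and the untested Hist2h2aa1 is not. These 55 low members had 65, 98 and 71 counts in all in HKO 1, 2 and 3, against 241, 177 and 147 in WT 1, 2 and 3. As CPM these sums were 3.49, 5.70 and 3.24 in HKO and 13.4, 9.94 and 8.97 in WT, with HKO 2 the nearest to WT. Of the 51 with any count, 38 had the lower mean in HKO (74.5%), against 45.7% of the 5951 genes of the table with so few counts. In all, 16 members were at 0 in every HKO library but not in WT, 2 were at 0 in every WT library but not in HKO, and 4 were at 0 in all 6. A count of 0 in 1 library allows up to 0.137 to 0.174 CPM in HKO and 0.167 to 0.183 CPM in WT, counting error only.

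The protocol states that purified total RNA was separated into mRNA and names no poly(A) step, so how far tailless histone mRNA was retained is not known. Of 15 entries for RNAs that lack a poly(A) tail, 8 matched no gene record. The 7 genes found, Rpph1 and Rmrp among them, summed to 14, 15 and 33 counts in HKO and 9, 6 and 8 in WT. Of these genes, 3 were at 0 in all libraries and none could be tested. Snora26 gave most of the sum, with a mean CPM of 0.653 in HKO and 0.306 in WT. Its mean FPKM was lower (0.141 and 0.0655), so its counted record is long and may not be a tailless RNA. How well such RNAs were retained is thus not settled. The members were also grouped by where the deposited gene record, here called the model, ends relative to the stem-loop found in M21. M21 exons can be longer than the model, as for Hist1h1d (7425 bases against 744). In 14 members the model runs more than 100 bases past the stem-loop, and these summed to 131, 94.6 and 121 CPM in HKO and 111, 81.1 and 86.8 CPM in WT, mostly Hist1h1c (89.2%). In 29 members it ends within 100 bases, and these summed to 12.7, 11.9 and 11.8 CPM in HKO and 29.6, 11.5 and 24.6 CPM in WT. In 28 members no stem-loop was found in a model, 2 of them (Hist1h2bh and Hist1h2bm) having no M21 transcript to search. These, mostly Hist1h2bc (88.1%), summed to 103, 89.7 and 91.7 CPM in HKO and 113, 122 and 110 CPM in WT. The groups of libraries overlapped in the first and second sets. A model end is an annotation and not a measured transcript end.

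Likeness between copies limits the values of many single records. The median identity of coding sequences within a class was 70.6% for H1, 91.3% for H2A, 94.8% for H2B, 97.2% for H3 and 93.9% for H4. Of 69 records with a transcript, 25 shared at least 50% of their 100-base windows with another locus and 9 shared none. Genes that overlap a record were not counted as another locus. The windows are those of M21 transcripts, and 48 of the 71 records have the same coordinates in M21. For the others, the share in the counted record can differ. Exons of 24 members overlap a gene on the opposite strand and those of 7 overlap one on the same strand, and no strand marking is described.

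Replication-independent histone variants are made outside S phase as well, mostly from polyadenylated mRNA. Of 11 tested, 2 fell and 0 rose, against 11.2% and 12.1% of all genes tested, and their median log2 fold change was -0.26. H1fx, a linker variant, had 0.322, 0.407 and 0.228 CPM in HKO and 3.22, 3.15 and 3.36 CPM in WT, and fell by 3.34 ± 0.32 on the log2 scale (SE; edgeR adjusted p = 0.000642). Cenpa, the H3 variant of centromeres, had 4.62, 12.97 and 4.65 CPM in HKO and 26.8, 22.4 and 23.1 CPM in WT, and fell by 1.71 ± 0.38 on the log2 scale (SE; edgeR adjusted p = 0.0166). The linker variant H1f0 (log2 fold change -0.26 ± 0.08, edgeR adjusted p = 0.0541) and the H3.3 gene H3f3b (0.03 ± 0.09, edgeR adjusted p = 0.839) did not pass.

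Genes of histone mRNA synthesis and 3′ end formation were next. Of 24 tested, 4 fell and 1 rose, against 11.2% and 12.1% of all genes tested, and their median log2 fold change was -0.24. Those that fell by edgeR were Zfp473, the zinc finger protein of the U7 complex (-2.12 ± 0.50, adjusted p = 0.0202), Ccna2, which encodes cyclin A2 (-1.95 ± 0.52, adjusted p = 0.0312), the cleavage factor gene Cstf3 (-0.75 ± 0.11, adjusted p = 0.0033) and the cap binding gene Ncbp2 (-0.52 ± 0.11, adjusted p = 0.0154). Cpsf1, a subunit of the cleavage complex, rose by 0.33 ± 0.09 on the log2 scale (SE; edgeR adjusted p = 0.0392). Ybx1 (-0.31) and Cpsf3 (-0.24) did not pass. Slbp, which binds the stem-loop, and Npat, the activator of histone gene transcription, are named outside the rule, after their values were seen. Slbp had 7.95, 13.4 and 8.48 CPM in HKO and 10.9, 9.89 and 10.3 CPM in WT (edgeR adjusted p = 0.851), and Npat had 7.04, 8.96 and 9.98 CPM in HKO and 9.67, 9.55 and 11.0 CPM in WT (edgeR adjusted p = 0.369).

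Of 11 histone mRNA decay genes 1 fell, the decapping enzyme gene Dcp2 (log2 fold change -0.53 ± 0.10, edgeR adjusted p = 0.0105), while Upf1 (0.11) and Zcchc6 (0.03) did not pass. Of 23 histone chaperone genes 1 fell, Mms22l, which acts with Tonsl at damaged forks (log2 fold change -1.04 ± 0.18, edgeR adjusted p = 0.00636), while Npm1 (0.01) and Rbbp7 (-0.15) did not pass. Of 24 S phase genes 1 fell and 0 rose. Beside the decay, chaperone and S phase lists, 11.2% of all genes tested fell and 12.1% rose. Rrm1, a subunit of ribonucleotide reductase (-0.57, edgeR adjusted p = 0.052), and Mcm5 of the replicative helicase (-0.33, edgeR adjusted p = 0.454) did not pass. The S phase genes had a median log2 fold change of -0.44 and summed to 278, 424 and 261 CPM in HKO, against 401, 425 and 418 CPM in WT, with HKO 2 within the WT range. Without HKO 2, 15 of the S phase genes fell, against 12.2% of all genes tested. With WT 1 left out 1 fell, and with HKO 1, HKO 3, WT 2 or WT 3 left out 0 fell. The proliferation marker Mki67 had 17.7, 64.0 and 25.7 CPM in HKO and 154, 137 and 138 CPM in WT and fell by 2.003 ± 0.42 on the log2 scale (SE; edgeR adjusted p = 0.0131). HKO 2 was thus the HKO library nearest to WT for S phase genes, for Mki67 and for the sum of weakly counted histone genes, but its histone sum without Hist1h1c and Hist1h2bc (26.9 CPM) stood with those of HKO 1 and 3.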

How the data were processed

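The submitters' processing notes list HISAT2 2.0.4 and StringTie 1.3.0. Per the file headers, the authors deposited raw read counts and FPKM for every gene and library. The rule for reads that match several genes was not stated. Counts of all 34745 genes were fitted in R 4.3.3 with edgeR 4.0.16 (filterByExpr, TMM, quasi-likelihood F-test, genotype only, Benjamini-Hochberg over 12556 genes). Calls required an adjusted p below 0.05. The SE is the absolute log2 fold change over the square root of F. Levels are TMM-scaled CPM computed from the counts, or the deposited FPKM. Library totals are in the report. The p-values measure only the spread between these libraries. Alternatives used DESeq2 1.42.0, limma-voom (limma 3.58.1), other scalings and filters, a replicate block and each library left out.

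Members and lists were chosen with earlier results of these data known. Named were all called members, the 4 per class with the highest mean FPKM, members at 0 in a whole group with a mean of at least 10 counts in the other, and, per list, up to 6 called and 2 uncalled genes. Stem-loops and 100-base windows were read from GENCODE M21 transcripts, and promoters from RefSeq GRCm38.p6. The replicate numbers are not said to pair libraries. The values of 1 gene of the lists are not reported here.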

Additional observations from a re-analysis of the deposited data

How the results depend on the processing

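The precision is limited by 3 libraries a group and by counts under 10 for most members. Of 190 single-gene values over 15 members, 169 kept their direction and side of the threshold, 16 lost the call, 2 gained it and 3 changed sign, all of them near 0: the log2 fold change of Hist1h2bf became 0.08 without HKO 3 and 0.12 without WT 1 (range -0.14 to 0.12 over libraries left out), and that of Hist3h2a 0.018 without WT 1 (range -0.39 to 0.018). Differences in CPM also turned with a library left out, for Hist1h2bc (-9.71 to 0.0982), Hist1h2bf (-0.252 to 0.235, and 0.173 without HKO 3) and Hist3h2a (-1.06 to 0.0654). The cause was not tested.

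Members called lower numbered 8 of 67 tested with no filter, a smaller share than the 5 of 16 in the main fit. Those added were Hist2h2aa1, the noncoding Hist2h2bb record and Hist2h3c1. With at least 10 counts in every library, 1 of 11 tested was called lower. All genes called lower numbered 1270 with no filter, 1336 with at least 10 counts in every library and 1401 in the main fit. Members called higher numbered 0 by library totals. With the replicate block 2 were called higher, Hist1h1c being added, 0 cleavage and synthesis genes were higher, 2 chaperones were lower and 0 S phase genes were lower; same-numbered libraries had correlations of -0.002, 0.002 and 0.072 in their deviations, so the numbers were not taken as pairs. Leaving out each library gave 2 to 8 members lower and 0 to 2 higher, of 17 to 22 members tested. Of all genes, 682 to 1546 were then lower and 722 to 1589 higher. In the lists, 1 to 3 variants were lower, and 1 to 7 synthesis genes were lower and 0 to 1 higher. Chaperones lower numbered 1 to 7, and S phase genes lower 0 to 15. Variants lower numbered 1 with at least 10 counts. Synthesis genes higher numbered 0 by library totals, no filter and DESeq2. Decay genes lower numbered 2 by DESeq2. Chaperones lower numbered 2 by DESeq2 size factors, library totals, no filter and DESeq2. S phase genes lower numbered 2 by DESeq2 size factors, 5 by library totals, 3 with no filter, 5 by DESeq2 and 5 by limma-voom.

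Without its most counted member, the log2 ratio was -0.97 for H1, -0.77 for H2A and -1.15 for H2B. An alternative chosen after seeing the data left out the named members at 0 in HKO, which could only raise the ratios, and kept Hist2h2aa2. The log2 ratio was then 0.19 for H2A and -0.50 for the Hist2 cluster. For models that end near the stem-loop it was -0.066, and for those without one -0.17. Leaving out each library kept the log2 ratio of the 69 records other than Hist1h1c and Hist1h2bc between -1.36 and -0.93, and that of all members between -0.13 and 0.03. Finding the stem-loop with 1 mismatch allowed gave the same 44 records.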
